A study of Homo sapiens with 45 samples.

Results

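The paired-box genes PAX1, PAX2, PAX3, PAX5, PAX6, PAX7 and PAX8 were followed through the chromatin contacts at their ends. A contact is a pair of DpnII-derived fragments on the same chromosome, a captured fragment (the bait, with a median length of 625 bp over the data) and another piece of the genome (the other end, with a median of 5253 bp). A pair was taken when either of its fragments lay within 1000 bp of either annotated end of 1 of the 7 genes in RefSeq coordinates of GRCh38. The choice used position and no score. It gave 49 of the 152688 same-chromosome pairs in the data, among 434524 pairs in all. PAX2 had 17 of them, PAX8 had 21, PAX3 had 7, PAX1 had 2, and PAX6 and PAX7 had 1 each. PAX5 had none. PAX4 and PAX9 were not among the genes chosen.

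The contacts came from HNES1, an established human embryonic stem cell line, harvested on day 5 after leaving naive culture for the primed state. Fragments bearing poised enhancers had been enriched from Hi-C libraries with biotinylated RNA probes. All cells were moved from naive culture into a transition medium with the tankyrase inhibitor XAV939. They had received DMSO alone, UNC6852 at 2.5 µM, a bifunctional degrader of the Polycomb protein EED, or UNC1999 at 1 µM, a catalytic inhibitor of the EZH1 and EZH2 enzymes, in each case from 24 h before day 0. The doses differ, so the strengths of the compounds are not compared. The 3 biological replicates of a condition were sequenced as 15 libraries in 2 batches, and the values of the condition were 1 column pooled over them, called a profile below. A result thus rests on 1 value per profile without a replicate spread, and nothing was tested. The read depth behind a score is unknown. All cells came from 1 line, the effect of the compounds on EED and on histone methylation was not analysed here, and with no expression measured the cell label was not checked against markers.

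PAX proteins are transcription factors that bind DNA through the paired domain, and they lay down organs and cell lineages in the embryo. Both compounds act on Polycomb repressive complex 2 (PRC2). It places the trimethyl mark of silent developmental genes on histone H3 through EZH1 or EZH2, and EED reads that mark and holds the complex active. In pluripotent cells, where the lineages that use PAX genes have not yet formed, the starts of many developmental regulators carry this mark, and poised enhancers are regulatory elements of such genes.

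Where a gene's start lies on the fragments decides which of its contacts can be read, so the sequence just before the start is shown for the 5 genes whose start fragments carry the contacts described below. The sequences are the 250 bases before the first listed start in RefSeq (GRCh38.p14), 5′ to 3′ on the strand of the gene, with each CG dinucleotide in capitals. The table used held a promoter for 6 of the 7 genes, in 15 entries. PAX8 is given from chr2:113278922-113279171 on the minus strand, PAX3 from chr2:222298999-222299248 on the minus strand, PAX2 from chr10:100735146-100735395 on the plus strand, PAX7 from chr1:18630596-18630845 on the plus strand and PAX6 from chr11:31817962-31818211 on the minus strand.
PAX8: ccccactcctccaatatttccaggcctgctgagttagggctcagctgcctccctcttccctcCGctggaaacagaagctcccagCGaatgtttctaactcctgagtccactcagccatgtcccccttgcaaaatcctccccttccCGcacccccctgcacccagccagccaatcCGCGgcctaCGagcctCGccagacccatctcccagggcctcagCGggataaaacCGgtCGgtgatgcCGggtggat
PAX3: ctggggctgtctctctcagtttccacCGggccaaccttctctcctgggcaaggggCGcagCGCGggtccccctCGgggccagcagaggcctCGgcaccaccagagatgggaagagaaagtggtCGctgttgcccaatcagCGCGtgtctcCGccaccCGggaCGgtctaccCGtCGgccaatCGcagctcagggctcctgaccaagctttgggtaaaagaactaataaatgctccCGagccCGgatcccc
PAX2: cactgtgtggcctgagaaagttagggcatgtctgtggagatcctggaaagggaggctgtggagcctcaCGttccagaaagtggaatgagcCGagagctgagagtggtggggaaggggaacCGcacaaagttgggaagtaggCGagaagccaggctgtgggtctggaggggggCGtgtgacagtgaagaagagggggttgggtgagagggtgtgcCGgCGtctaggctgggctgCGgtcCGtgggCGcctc
PAX7: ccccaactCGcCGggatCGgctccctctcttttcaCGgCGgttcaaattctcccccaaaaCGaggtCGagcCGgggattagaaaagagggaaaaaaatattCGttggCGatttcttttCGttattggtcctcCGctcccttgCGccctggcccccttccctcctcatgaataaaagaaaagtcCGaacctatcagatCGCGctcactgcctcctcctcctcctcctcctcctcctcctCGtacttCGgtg
PAX6: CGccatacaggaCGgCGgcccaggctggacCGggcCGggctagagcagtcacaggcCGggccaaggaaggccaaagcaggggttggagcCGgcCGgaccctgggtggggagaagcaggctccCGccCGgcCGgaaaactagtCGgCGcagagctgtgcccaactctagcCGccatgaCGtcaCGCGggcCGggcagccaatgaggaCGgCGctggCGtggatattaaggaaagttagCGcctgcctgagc

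These promoters held 11 CG dinucleotides at PAX8, 17 at PAX3, 10 at PAX2, 18 at PAX7 and 22 at PAX6. The median over all 35116 listed promoters of the same length was 11, and 93.9% of them held at least 1. GATC, the letters DpnII cuts (a palindrome, so both strands read the same), occurred once in the PAX3 and PAX2 windows, 2 times in the PAX7 window and in 35.8% of all windows. No match was present in the PAX8 and PAX6 windows. The PAX8 window lay whole inside a captured fragment, chr2:113278642-113280473. The windows of PAX2, PAX3, PAX5, PAX6 and PAX7 lay inside pieces read as other ends, so the starts of these genes could be read when a bait elsewhere joined them.

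Baits were unevenly placed over the 7 genes. PAX8 had 3 baits within 1000 bp of an end, PAX1 had 2 and PAX2 had 1, while PAX3, PAX5, PAX6 and PAX7 had none. The nearest bait beyond this limit was 1395 bp from an end at PAX3, 1592 bp at PAX5, 2980 bp at PAX7 and 4175 bp at PAX6. At PAX1 and PAX2 the bait nearest to the limit on the inside was 934 and 81 bp away, and the next outside were at 1159 and 1445 bp. At PAX8 these were 805 and 1933 bp. The gene lay at the bait in 31 pairs, at the other end in 17 and at both in 1. No other end was itself a captured fragment. The median distance was 217 kb, with 27 pairs at 100 to 500 kb, 13 at 20 to 100 kb, 3 at 500 kb to 2 Mb and 6 beyond 2 Mb.

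The deposited value of a pair is a CHiCAGO score, which rises as the reads joining its fragments exceed a background model of distance and fragment bias. A pair was called at a score of 5 or more, and each listed pair reached that in at least 1 profile. Of the 49 PAX pairs, 18 were called in DMSO (36.7%, against 42.4% of all same-chromosome pairs), 16 in UNC6852 (32.7%, against 46.1%) and 21 in UNC1999 (42.9%, against 42.3%). Most calls came from a single profile, 44 pairs in all (89.8%, against 77.5% of all same-chromosome pairs). Another 4 pairs were called in 2 profiles (8.16%, against 14.1%), and 1 was called in all 3 (2.04%, against 8.33%). That pair joined the PAX8 start to PSD4. It was also the 1 pair of the 49 that reached a score of 10 in any profile (2.04%, against 7.21%).

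**Figure D1:**
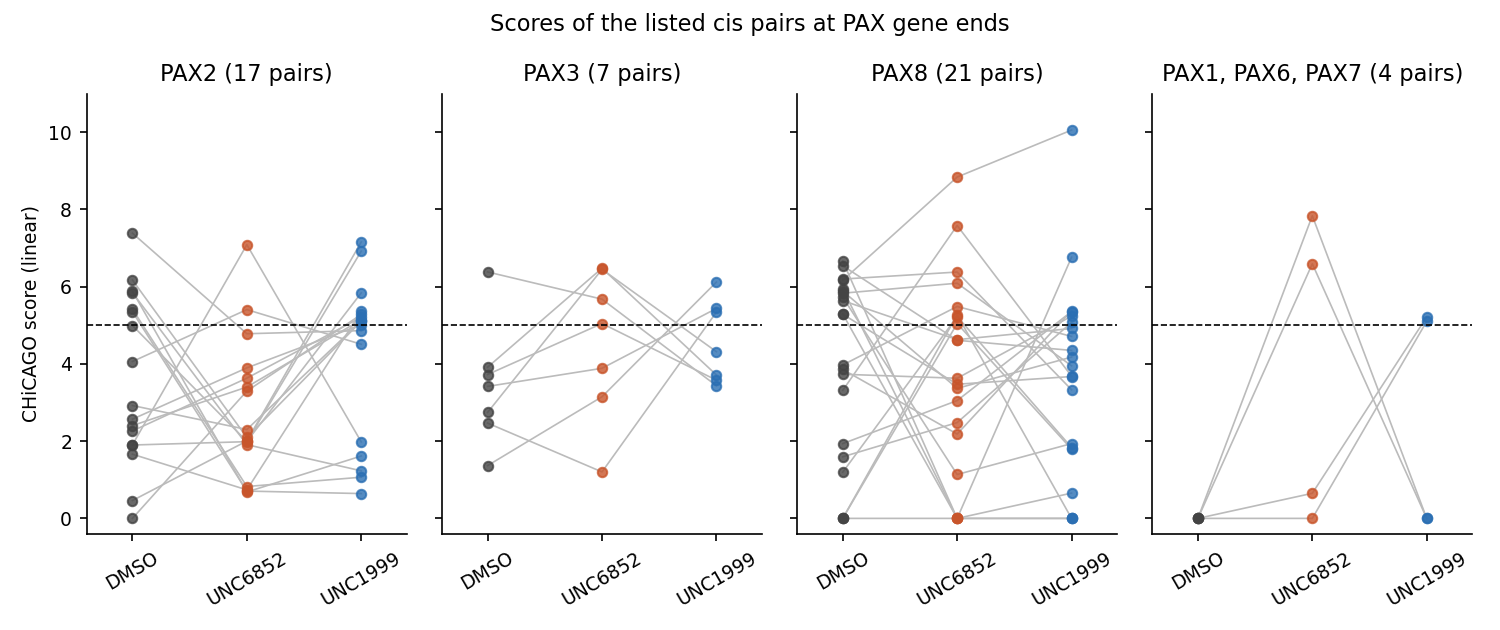
CHiCAGO scores of the 49 pairs at the PAX gene ends in the DMSO, UNC6852 and UNC1999 profiles, with a panel each for PAX2, PAX3 and PAX8 and a shared panel for PAX1, PAX6 and PAX7; each line joins the points of 1 pair and the dashed line marks the call threshold of 5. Lines cross freely within PAX2, PAX3 and PAX8, and the 1 line that stays above 5 throughout is the PAX8 contact with PSD4.

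Of the 18 pairs called in DMSO, 4 were also called in UNC6852 (22.2%, exact 95% binomial interval 6.41% to 47.6%, against 31.4% of all same-chromosome DMSO calls) and 2 in UNC1999 (11.1%, 1.38% to 34.7%, against 29.3%). Between the treated profiles, 1 of the 16 UNC6852 calls was also a UNC1999 call (6.25%, against 29.1%), and that 1 was 4.76% of the 21 UNC1999 calls (against 31.7%). These exact (Clopper-Pearson) intervals, here and below, cover counting error only, and pairs that share a bait or bin are not independent. The kept shares moved with the choice of pairs. They were 36.4% and 33.1% of 118 DMSO calls with a limit of 5000 bp from the gene ends, 40.0% and 10.0% of 10 with no margin, and 28.6% of 14 under each compound after neighbouring other ends were merged.

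**Figure D2:**
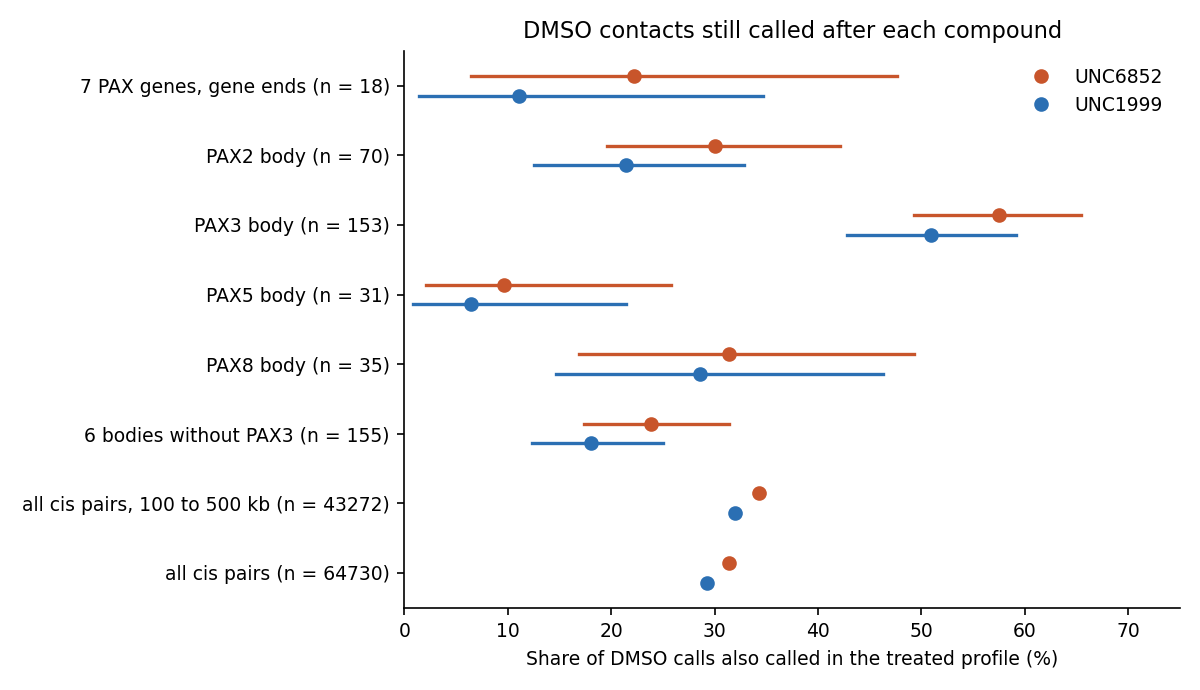
Share of DMSO calls that were also called in UNC6852 or in UNC1999, in percent, for PAX gene ends, for the whole bodies of the genes with over 30 DMSO calls and of all but PAX3, and for all same-chromosome pairs; horizontal bars on the PAX points are exact 95% binomial intervals and n is the number of DMSO calls. The gene-end shares are 22.2% and 11.1% with wide intervals, and the PAX3 body shares are 57.5% and 51.0%.

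PAX2 and PAX8, with PAX5, form the subgroup of kidney, thyroid, midbrain-hindbrain and B-cell regulators. PAX2, which specifies kidney and optic tissue, lies at chr10:100735396-100829944 on the plus strand. Its 17 end pairs gave 6 DMSO, 2 UNC6852 and 10 UNC1999 calls, and 16 of the pairs were called in a single profile. A bait just past its far end, chr10:100830025-100830781, made 9 of the pairs, all with other ends before the gene's end. The highest of these in DMSO lay 249 kb away at chr10:100579077-100584647 and scored 7.38 in DMSO, against 4.78 in UNC6852 and 4.86 in UNC1999. The same bait met chr10:100552234-100557509, inside HIF1AN, the gene of an asparagine hydroxylase that restrains hypoxia-inducible factor, with 6.17, 2.09 and 5.10. It is the 1 PAX2 end pair called in more than 1 profile. None of the 9 pairs of this bait was called in UNC6852 (against 46.1% of all same-chromosome pairs). In DMSO 5 were called (against 42.4%), as were 5 in UNC1999 (against 42.3%). The 9 share 1 bait and are not independent, and their UNC6852 scores reached 4.78. Over the 182 pairs at the whole PAX2 gene, described below, UNC6852 instead had the most calls, 85 against 70 in DMSO and 68 in UNC1999.

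The start and the end of PAX2 were joined in both readings, from a bait at either side. From the bait past the end, the piece that holds the PAX2 start (chr10:100731942-100736840, with the promoter printed above) scored 5.84 in DMSO but 1.91 in UNC6852 and 1.23 in UNC1999, over 96.0 kb. From the bait just inside the gene, chr10:100736841-100738522, the piece past the end (chr10:100830782-100836788) scored 4.06, 5.40 and 4.51 over 96.1 kb. The profile with the highest score thus differed between neighbouring fragments that report nearly the same contact.

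The piece past the PAX2 end was met from 7 baits, each called in 1 profile. The bait in WNT8B, the gene of a secreted WNT ligand, read 0 (DMSO), 3.30 (UNC6852) and 5.28 (UNC1999) over 351 kb. A bait between HIF1AN and PAX2, chr10:100561617-100562155, scored 0.462, 2.00 and 7.16. Another, chr10:100656074-100657341, scored 1.90, 7.09 and 1.98. A bait on the far side, chr10:101050460-101051050, scored 5.35, 0.707 and 0.643. UNC1999 held the highest score for 4 of the 7 baits, UNC6852 for 2 and DMSO for 1.

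PAX8, a regulator of thyroid and kidney development, lies at chr2:113215997-113278921 on the minus strand. Among its 21 pairs, 11 were DMSO calls, 8 were UNC6852 calls and 6 were UNC1999 calls, and 9 of the 21 spanned 20 to 100 kb. The bait that holds the promoter printed above made 15 of the pairs. Its contact with chr2:113206458-113213839, which covers an end of PSD4 (an exchange factor for the small GTPase ARF6) just past the other end of PAX8, had a score of 6.16 in DMSO, of 8.84 in UNC6852 and of 10.1 in UNC1999 over 69.4 kb. This was the highest pair of the family at gene ends and the only 1 of the 49 that was called in every profile.

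On the other side, before the start, the same bait met 5 pieces between 59.7 and 96.6 kb away, in the non-coding gene LINC02966. The nearest, chr2:113335930-113342650, scored 3.31, 7.58 and 3.68 in the DMSO, UNC6852 and UNC1999 profiles. At chr2:113358110-113363467 the scores were 6.54, 4.61 and 4.35, and at chr2:113363468-113368564 they were 5.83, 6.09 and 3.95. The 5 pieces stayed between 3.31 and 7.58 in all profiles, so each was near the threshold and none was at 0. The next protein-coding gene beyond them is ZNG1B, of a family with near-identical copies elsewhere in the human genome. How reads shared between copies were treated is not given in the sources used here.

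Further contacts of the PAX8 promoter bait reached the interleukin-1 family cluster. The piece covering ends of IL36RN, which encodes a receptor antagonist, and IL1F10 scored 3.97, 5.49 and 4.71 in the same order over 214 kb. A piece 199 kb away that holds no protein-coding gene scored 6.20, 6.38 and 3.33. Those in IL36B, the gene of a pro-inflammatory cytokine, scored 3.73, 3.63 and 5.24 at 241 kb and 1.94, 3.05 and 5.36 at 236 kb. A nearby bait, chr2:113277385-113278116, read the same IL36RN piece at 5.94, 0 and 0.655. Read from this bait the highest score lay in DMSO, and from the promoter bait it lay in UNC6852. Beyond 2 Mb, PAX8 had 4 pairs, each with a score in 1 profile and 0 in the other two, among them CRIM1 at 76.9 Mb with 6.66 in DMSO and MYO7B at 14.3 Mb with 6.76 in UNC1999.

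PAX3, a regulator of neural crest and muscle progenitors and the close relative of PAX7, lies at chr2:222199887-222298998 on the minus strand. Its end pairs gave 1 DMSO, 4 UNC6852 and 3 UNC1999 calls. All 7 were read from baits that lie more than 1000 bp from the gene ends. The piece that holds its start and the promoter printed above, chr2:222297604-222301366, was met from 6 baits. Of these, 4 adjoin each other at chr2:222052328-222053902, about 246 kb past the start in the direction of transcription, in the interval between PAX3 and EPHA4. From the first of the 4 the DMSO, UNC6852 and UNC1999 scores were 1.37, 3.15 and 6.12. The second gave 3.91, 6.48 and 3.71, the third 2.74, 6.45 and 4.32, and the fourth 6.38, 5.68 and 3.43. All 4 therefore scored above 1 in each profile, while the profile with the highest value changed from bait to bait. The start also met a bait in SGPP2, the gene of a sphingosine-1-phosphate phosphatase, 135 kb before it, with 2.47, 1.20 and 5.34, and a bait 225 kb past it with 3.42, 3.89 and 5.44. The piece at the far end of PAX3 met a bait inside the gene, 70.2 kb away, with 3.72, 5.05 and 3.58.

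PAX7, needed for muscle satellite cells, lies at chr1:18630846-18748866 on the plus strand and had 1 end pair. It joined the piece of its start, chr1:18627867-18633280, to a bait 37.8 Mb away and scored 0 in DMSO, likewise 0 in UNC6852, and 5.10 in UNC1999.

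PAX6, which directs eye, forebrain and pancreas development, lies at chr11:31789026-31817961 on the minus strand. Its 1 end pair joined the start piece, chr11:31817893-31822135, to a bait at chr11:32426008-32426864 in WT1, a gene of kidney and gonad development, 606 kb away. The DMSO, UNC6852 and UNC1999 scores were 0, 0.649 and 5.22. PAX1, a regulator of the vertebral column and pharyngeal pouches, lies at chr20:21705664-21718481, and its strand was not in the tables used. Of its 2 end baits, the first met chr20:22257300-22262408, 553 kb towards higher coordinates, with 6.59 in UNC6852 and 0 in both of the others. The second met a piece 19.6 Mb away with 7.83 in UNC6852 and again 0 elsewhere. Neither scored outside the UNC6852 profile.

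Between chromosomes, where the same ends were looked up for completeness, PAX8 had 17 pairs, PAX2 11, PAX1 10, PAX6 3, PAX3 and PAX5 1 each, and PAX7 none. None of these 43 was called in more than 1 profile, as against 0.334% of all pairs between chromosomes.

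Per gene, the difference was taken as the mean over its pairs of asinh(score), a scale close to a logarithm that admits 0, treated minus DMSO. PAX2 stood at 1.79, 1.57 and 2.00 in the DMSO, UNC6852 and UNC1999 profiles. The differences were -0.22 for UNC6852 and 0.20 for UNC1999, or -0.52 and -0.060 when the profiles were quantile-normalized. For UNC6852, 8 of the 17 pairs were higher than in DMSO and 9 lower, and for UNC1999 these were 11 and 6. Of all same-chromosome pairs, 50.8% were higher in UNC6852 than in DMSO and 47.9% were higher in UNC1999. PAX3 stood at 1.87, 2.12 and 2.20, with differences of 0.25 and 0.33, or -0.045 and 0.059 after quantile normalization. PAX8 stood at 1.86, 1.73 and 1.75, with differences of -0.12 and -0.11 (-0.28 and -0.29 after quantile normalization), and 10 of its 21 pairs were higher and 10 lower under each compound. Both comparisons share the DMSO profile.

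The spread between pairs of a gene was wider than these means. The SD over pairs of the difference was 1.07 for PAX2, 0.51 for PAX3 and 1.33 for PAX8 under UNC6852, and 1.21, 0.64 and 1.20 under UNC1999. Among the 4979 protein-coding genes with at least 3 pairs, the median difference was 0.069 for UNC6852, with 56.4% of genes higher, and -0.0076 for UNC1999, with 49.1% higher. Quantile normalization moved these medians to -0.14 and -0.23. PAX2 exceeded 26.5% of those genes for UNC6852 and 68.3% for UNC1999, PAX3 exceeded 66.3% and 76.2%, and PAX8 exceeded 33.3% and 40.5%. PAX1, PAX6 and PAX7 rest on 1 or 2 pairs. Their differences were 2.67 and 0 for PAX1, 0.61 and 2.35 for PAX6, and 0 and 2.33 for PAX7. The pairs of these genes scored 0 in DMSO and were listed through 1 treated profile, so their differences could not be negative. Over the 6 genes with a pair, the median was 0.13 for UNC6852 (-0.023 after quantile normalization) and 0.27 for UNC1999 (0.030). Over the 3 PAX genes with at least 3 pairs it was -0.12 and 0.20. Over all 9942 genes with at least 1 pair it was 0.046, with 52.8% of genes higher, and 0, with 47.8% higher.

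**Figure D3:**
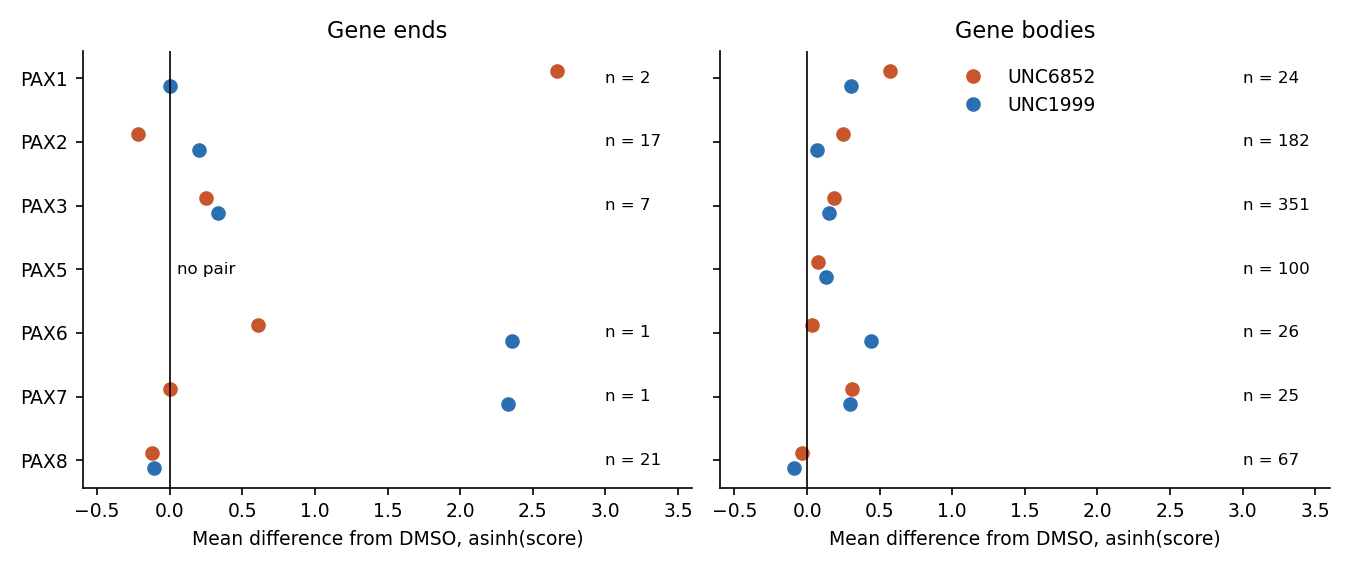
Difference in mean asinh(score), treated profile minus DMSO, for the pairs at the ends of each PAX gene (left) and at its whole body (right), with n the number of pairs and 1 point per compound. At the ends the points beyond 2 belong to PAX1, PAX6 and PAX7, which have 1 or 2 pairs, and at the bodies all points lie between -0.091 and 0.57, where quantile normalization turned several positive ones negative.

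The genes with the most similar levels over the 3 profiles, among 3265 genes with at least 5 pairs, were ANKRD9 and DEFB134 for PAX2 (Euclidean distance over the 3 mean asinh scores 0.054 and 0.069), SPECC1 and RBFOX1 for PAX3 (0.047 and 0.051), and ERVMER34-1 and SLC4A10 for PAX8 (0.048 and 0.071).

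Among 36 targets or regulators of PAX genes, 24 had at least 3 pairs. For UNC6852, 16 were higher and 8 lower (median 0.11, or -0.14 with 9 higher and 15 lower after quantile normalization). For UNC1999, 13 were higher and 11 lower (median 0.053, or -0.22 with 7 higher and 17 lower). Over all 4979 genes with at least 3 pairs, 56.4% and 49.1% were higher. The medians there were 0.069 and -0.0076, or -0.14 and -0.23 after quantile normalization. Highest for UNC6852 were EN2, a midbrain-hindbrain homeobox gene, at 1.37 (0.52 for UNC1999), and ZIC1, of neural crest and cerebellum, at 1.06 (0.70). Lowest were MITF, the melanocyte regulator and PAX3 target, at -1.35 (-1.35), and WNT4, of kidney tubule formation, at -0.33 (0.14). These values rest on 6 pairs at EN2, 5 at ZIC1, 5 at MITF and 7 at WNT4. PAX9, outside the genes chosen, had 31 pairs and differences of -0.12 and -0.18.

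Since few baits lie at the ends of these genes, the same description was extended to pairs with a fragment anywhere from 1000 bp before to 1000 bp past each gene, an extension chosen after the values at the ends were seen. It held 775 pairs, of which PAX3 had 351, PAX2 182, PAX5 100, PAX8 67, PAX6 26, PAX7 25 and PAX1 24. Calls numbered 308 in DMSO (39.7%, against 42.4% of all same-chromosome pairs), while UNC6852 had 382 (49.3%, against 46.1%) and UNC1999 had 366 (47.2%, against 42.3%). For PAX3 alone the shares called were 43.6%, 59.8% and 55.3% in the same order. Without PAX3 they were 36.6%, 40.6% and 40.6%, below the share of all same-chromosome pairs in each profile. Of the 308, 40.6% were also called in UNC6852 and 34.4% in UNC1999, against 31.4% and 29.3% of all same-chromosome DMSO calls. In all 3 profiles 81 pairs were called (10.5%, against 8.33%), and 67 of them were PAX3 pairs. Among PAX3 body pairs this was 19.1%, against 9.42% of all same-chromosome pairs of 100 to 500 kb, the range that held 333 of the 351. The other genes together had 14 of 424 (3.30%).

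PAX3 body pairs had 153 DMSO, 210 UNC6852 and 194 UNC1999 calls. Of the 153, 88 were also called in UNC6852 (57.5%, 49.3% to 65.5%) and 78 in UNC1999 (51.0%, 42.8% to 59.1%). All DMSO calls of 100 to 500 kb gave 34.3% and 32.0%. Between the treated profiles the PAX3 shares were 51.0% of UNC6852 calls and 55.2% of UNC1999 calls, against 32.2% and 34.8%. Without PAX3, 37 of 155 DMSO calls at the other gene bodies were also called in UNC6852 (23.9%, 17.4% to 31.4%) and 28 in UNC1999 (18.1%, 12.4% to 25.0%). PAX2 stood at 30.0% and 21.4%, PAX8 at 31.4% and 28.6%, and PAX5 at 9.68% and 6.45%.

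The PAX3 body pairs with the highest scores converged on 1 region. The bait chr2:222290455-222292911, 7.32 kb into the gene, met chr2:222053903-222059225 at 235 kb with 20.003, 19.5 and 20.5 in the DMSO, UNC6852 and UNC1999 profiles. It met chr2:222044177-222049601 with 19.3, 18.6 and 22.0, and chr2:222059226-222064310 with 17.7, 20.2 and 17.9. Nearer the start, the bait chr2:222295546-222296488 met the first and second of these pieces with 21.3, 16.3 and 22.2, and with 15.5, 15.9 and 20.6. In each of these pairs all 3 profiles stood above 15.

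Each of the 3 pieces was met from 13 of the 14 PAX3 baits with pairs. The piece nearest EPHA4 had a mean score over its 13 baits of 10.4, 10.8 and 10.7 in the same order, the middle one 9.50, 9.68 and 10.7, and the one nearest PAX3 8.66, 10.0 and 8.70. Of the 13 pairs, 8, 10 and 8 were called in all 3 profiles. The region lies 135 to 150 kb beyond the far end of PAX3 and 470 to 485 kb from EPHA4, which encodes an ephrin receptor, with no protein-coding gene between. The pieces are neighbours and the baits lie close together, so these pairs are not independent of each other.

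The region was picked out for its high scores, so the counts and medians inside it describe these pairs and compare them with nothing else. It also held baits of its own. Over the 25.2 kb from chr2:222044177 to 222069356, PAX3 baits made 70 pairs, called 43, 57 and 51 times, with 35 (50.0%) called in all 3 profiles and median scores of 6.51, 7.50 and 7.44. From 5 baits inside that region, 35 pairs with PAX3 were called 9, 25 and 16 times, and 4 (11.4%) were called in all 3, with medians of 3.55, 5.49 and 4.32. Their highest pair, chr2:222052486-222053108 with chr2:222282713-222287947 in PAX3, scored 10.4, 11.5 and 11.3.

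On the side before the start, 109 PAX3 pairs had their partner in SGPP2, with highest scores of 11.2, 13.5 and 14.9. Of these, 14 were called in all 3 profiles, against 9.42% of all same-chromosome pairs of 100 to 500 kb. Of all 775 PAX body pairs, 61 reached 10 in some profile (7.87%, against 7.21% of all same-chromosome pairs), and 54 of these were PAX3 pairs.

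**Figure D4:**
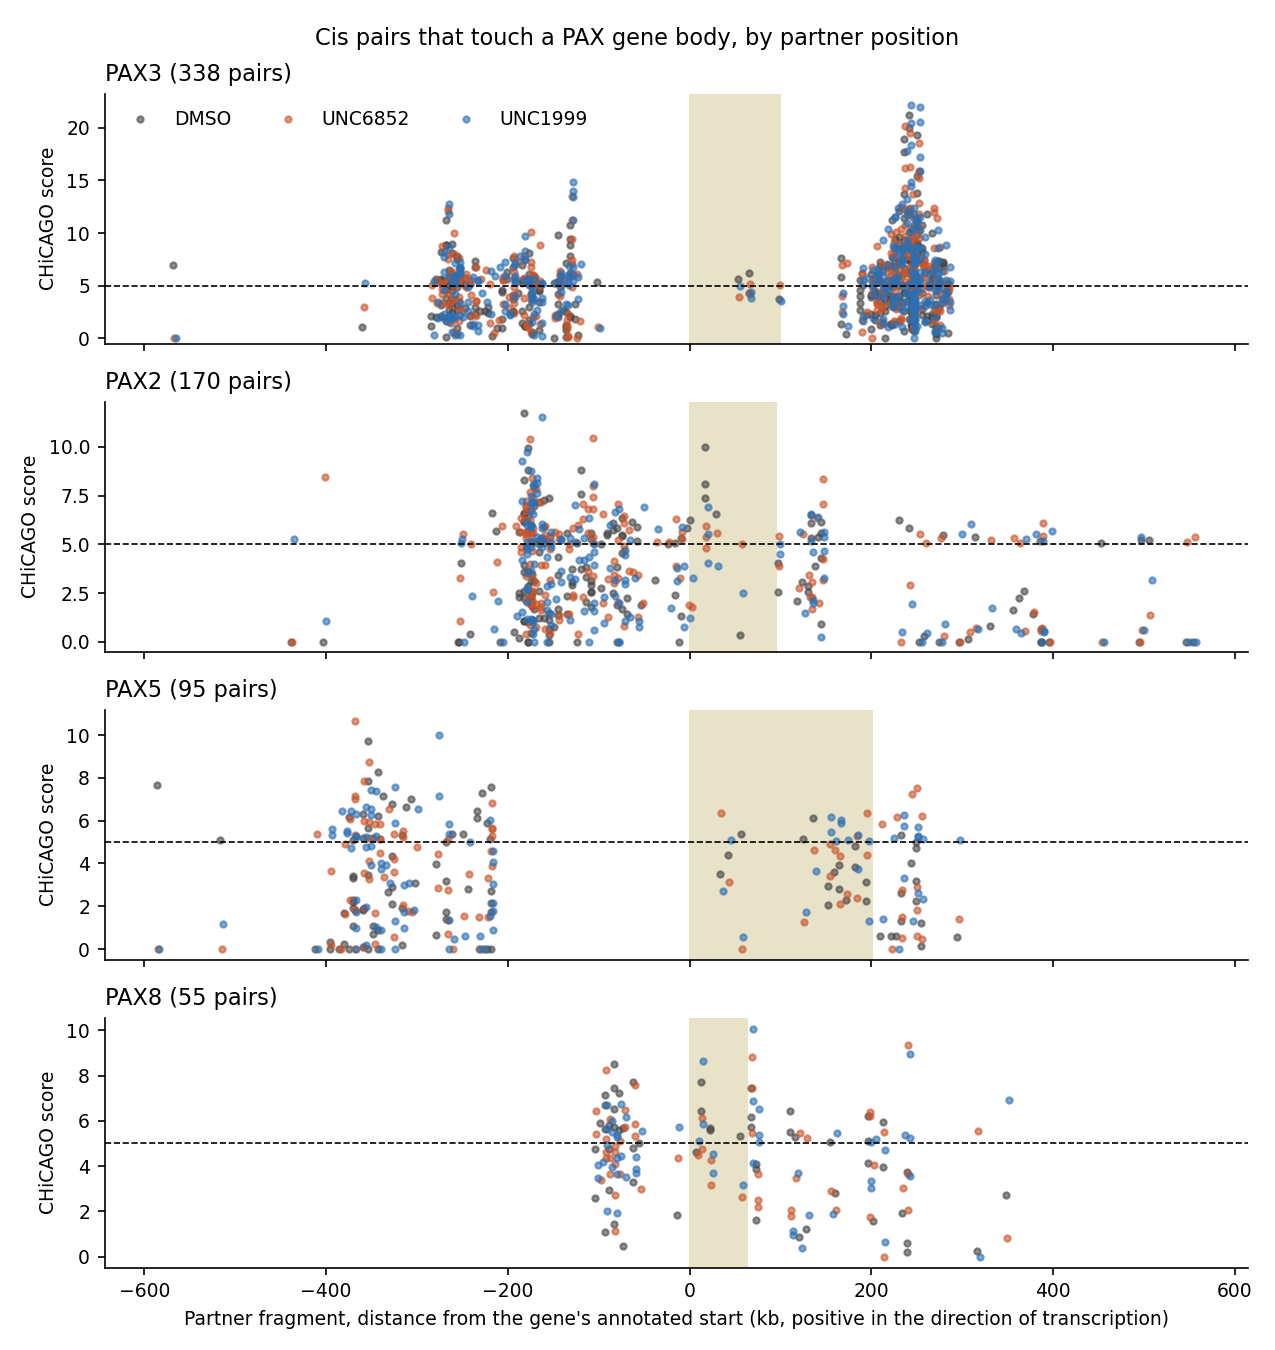
CHiCAGO scores in the 3 profiles of pairs at the PAX3, PAX2, PAX5 and PAX8 gene bodies against the distance of the partner from the gene start in kb, negative before the start; only partners within the plotted range are drawn, the shaded area is the gene, and the 3 points of a pair are set slightly apart. At PAX3 the scores of all 3 profiles peak between 232 and 252 kb past the start, up to 22.2.

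Single PAX3 pairs could still differ widely between profiles. The widest gap above DMSO at a score of 10 or more was 1.36 against 12.0 in UNC6852, with UNC1999 at 0.621, for a partner 268 kb past the start. For UNC1999 it was 0 against 10.4, with UNC6852 at 5.34, for a partner 217 kb past it. The widest gap below DMSO was 11.1 against 0 in both treated profiles, for a partner 29.6 Mb away read by a bait of 141 bp.

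At the PAX2 body, 26 pairs had their partner in HIF1AN. Of these, 2 were called in all 3 profiles (against 9.42% of all same-chromosome pairs of 100 to 500 kb), both from the bait chr10:100816374-100817571. They scored 9.93, 6.87 and 6.73, and 8.31, 5.65 and 9.72, in the DMSO, UNC6852 and UNC1999 profiles. The HIF1AN piece named above was met from 12 baits, with mean scores of 5.00 for DMSO, 5.12 for UNC6852 and 4.45 for UNC1999, and with 6, 8 and 4 calls. The most even pair of high score joined chr10:100817632-100818337 to chr10:100563466-100568900 beside HIF1AN, with 7.95, 7.84 and 7.63. A piece between HIF1AN and PAX2, chr10:100625900-100631827, was met from 7 baits with means of 3.40, 6.64 and 3.70 and was called from 2, 6 and 2 of them. Of all same-chromosome pairs, 42.4%, 46.1% and 42.3% reached the threshold in the same order. The piece was picked from several after the values were seen. Pairs that share a piece, here and at the HIF1AN piece, are not independent. Another piece in this interval, chr10:100568901-100573915, was met from 6 baits and was instead called from 2, 2 and 5. Only 4 PAX2 body pairs reached a score of 10 in any profile. The sole such pair in DMSO scored 11.7 there, 5.33 in UNC6852 and 2.67 in UNC1999. It joined the HIF1AN piece to a bait 57.3 kb into PAX2. Among those at 10 or more in UNC6852, the widest gap above DMSO was 5.30 against 10.5 (1.60 in UNC1999). The sole pair at 10 or more in UNC1999 scored 2.59 in DMSO against 11.5 (1.66 in UNC6852).

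PAX5, the B-lineage commitment factor at chr9:36833269-37034268 on the minus strand, had no end pair but 18 body baits with pairs. Its contact called in all 3 profiles joined chr9:37001671-37003529 to chr9:37383875-37389558, 384 kb away and between ZCCHC7 and GRHPR, with DMSO, UNC6852 and UNC1999 scores of 7.86, 8.73 and 6.55. Another 30 pairs had their partner in ZCCHC7, a subunit gene of an RNA-exosome cofactor. None of these was called in all 3, against 8.33% of all same-chromosome pairs. The widest gap above DMSO at a score of 10 or more was 1.08 against 10.7 in UNC6852, with UNC1999 at 0.999, for a partner 368 kb before the start. Among DMSO scores of 10 or more the widest gap was 10.1 against 0 in both treated profiles, for a partner 75.9 Mb away.

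PAX8 body pairs added a contact inside the gene at 7.66 kb, with scores of 7.71, 6.14 and 8.65, and a second reading of PSD4 from chr2:113275500-113276216, with 5.73, 7.47 and 6.88. The PSD4 piece was met from 3 baits, with means of 6.44, 7.26 and 7.03, and 2 of these pairs were called in all 3 profiles. The piece at chr2:113358110-113363467 was met from 5 baits, with means of 5.93, 3.48 and 4.11. It was called from 4 in DMSO, none in UNC6852 and 2 in UNC1999, and its UNC6852 scores reached 4.90. Its neighbours in and beside LINC02966 followed other patterns. From the bait chr2:113272465-113273465, the piece chr2:113352918-113358109 scored 7.22, 5.11 and 6.73 and the piece chr2:113347800-113352917 scored 5.70, 6.48 and 6.15, both called in all 3 profiles. The piece chr2:113335930-113342650 was met from 3 baits and was called from 1 in DMSO, all 3 in UNC6852 and none in UNC1999. Here too, pairs that share a piece are not independent.

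At PAX6, 4 baits made 25 of the 26 body pairs. The pair called in all 3 profiles joined chr11:31797244-31797419 to DNAJC24, a co-chaperone gene, 404 kb away, with 5.53, 7.21 and 5.39. Partners in DCDC1 numbered 9 and in DNAJC24 7, while ELP4, whose body overlaps the far end of PAX6, had 2. PAX6 had 7 DMSO, 7 UNC6852 and 14 UNC1999 calls, and 13 of the 14 were called in UNC1999 alone (92.9%, against 58.6% of all same-chromosome UNC1999 calls). Of the 7 DMSO calls 6 were likewise in DMSO alone, and of the 7 UNC6852 calls 6 were in UNC6852 alone. The 14 were 53.8% of its 26 pairs, against 42.3%. Adjoining baits made 7 and 5 of the 14, so these calls are not independent.

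PAX7 had 25 body pairs from 15 inside baits and 2 outside. Calls numbered 6 in DMSO (24%, against 42.4% of all same-chromosome pairs), 9 in UNC6852 (36%, against 46.1%) and 10 in UNC1999 (40%, against 42.3%). Each PAX7 pair was called in a single profile, against 77.5% of all same-chromosome pairs. PAX1 had 24 body pairs, with 6, 11 and 9 calls in the same order (25%, 45.8% and 37.5%). Of its pairs, 2 were called in 2 profiles (8.33%, against 14.1% of all same-chromosome pairs) and none in all 3 (against 8.33%). The median distance was 917 kb at PAX7 and 550 kb at PAX1, against 314 kb over all same-chromosome pairs. The shares set beside these genes are thus not matched for distance. The PAX1 pair with the highest single score met chr20:22101520-22107105, between PAX1 and the endoderm gene FOXA2, with 0.552, 9.79 and 5.18. An adjoining piece scored 5.10, 5.73 and 1.89 from the same bait. At the gene bodies the differences in mean asinh(score) were 0.57 for UNC6852 and 0.30 for UNC1999 at PAX1, 0.25 and 0.069 at PAX2, 0.18 and 0.15 at PAX3, 0.077 and 0.13 at PAX5, 0.037 and 0.44 at PAX6, 0.31 and 0.29 at PAX7, and -0.037 and -0.091 at PAX8. Quantile normalization turned PAX3, PAX5 and PAX6 to -0.030, -0.20 and -0.27 for UNC6852, and PAX1, PAX2, PAX3 and PAX5 to -0.064, -0.17, -0.069 and -0.16 for UNC1999.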

How the data were processed

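Poised-enhancer capture Hi-C was read from 45 libraries, 15 per condition. The deposited values are CHiCAGO scores per fragment pair, pooled by the authors over the libraries of a condition, per the labels and the file header. The build is GRCh38 per the submitters' processing notes. Versions of the aligner and of CHiCAGO, and read depths, are not given in the sources used here. Genes came from RefSeq (GRCh38.p14). The fragments' own sequence and exon positions were not used here.

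Calls were scores of at least 5, differences were taken on asinh(score), and shares carry exact 95% binomial intervals. All 7 genes are named. Per gene, single pairs named came from the 5 with the highest mean asinh score and from the largest fall and rise from or to a score of 10. They also came from pairs called in all 3 profiles whose partner fragment reaches another gene's end (up to 3). Not every pair that these rules pick is named, with several left out at PAX2 and PAX5. Further pairs of the same baits or pieces were chosen after their values were seen. Likeness, the gene lists and the alternatives followed set rules. A planned gene list is not reported here. The members and lists were chosen with earlier results of these data known. The extension to gene bodies, the PAX3 region and the counts per partner gene were added later. The difference calculation was run on simulated data with planted shifts, whose return follows from how they were added. The simulated noise was far below the spread between real pairs, so this run checks the arithmetic alone. Python 3.11.15, numpy 2.4.6, pandas 2.3.3, scipy 1.17.1 and matplotlib 3.10.9 were used.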

Additional observations from a re-analysis of the deposited data

How the results depend on the processing

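With 1 pooled score per condition there is no replicate to leave out, and small differences cannot be separated from sampling. No paired analysis was possible because the replicate numbers in the labels belong to libraries whose scores are pooled. Merging neighbouring other ends kept the number of calls within 1.5 times. Counting captured pairs once and dropping pairs under 20 kb could change nothing at the gene ends. None of the 49 pairs there had a captured other end or spanned under 20 kb. At a score of at least 7 the calls were 1 in DMSO, 4 in UNC6852 and 2 in UNC1999, so the share of DMSO calls kept was 0% for both compounds. Gene ends with no margin gave 10 DMSO and 10 UNC1999 calls, a margin of 5000 bp gave 118, 144 and 159, and gene bodies, an alternative chosen after seeing the data, gave 308, 382 and 366. Differences changed sign as follows. Quantile normalization shifted the all-gene median (0.069 to -0.14 for UNC6852, -0.0076 to -0.23 for UNC1999), and with it UNC6852 gave -0.045 for PAX3 and -0.023 for the family median, and UNC1999 gave -0.060 for PAX2. Limiting pairs to mean scores from 5 upward gave -0.12 for PAX3 and for the family median under UNC6852, and -0.41 for PAX2, -0.60 for PAX3 and -0.41 for the family median under UNC1999. These rest on 1 pair each at PAX2 and PAX3 and 5 at PAX8, and the median is over those 3 genes. With no margin, PAX2 was -0.35 under UNC1999 and PAX8 0.066 under UNC6852. With 5000 bp, PAX2 was 0.34 and PAX6 -0.16 under UNC6852, and PAX7 -0.0051 under UNC1999. Gene bodies gave 0.25 for PAX2 under UNC6852. The cause was not tested. The shares of PAX3 body calls kept ranged from 55.6% to 59.6% for UNC6852 and from 50.6% to 56.4% for UNC1999 over 5 alternatives.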
